A study of Homo sapiens with 4 samples.

Results

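Promoters of standalone long non-coding RNA (lncRNA) genes were examined for acetylation of histone H3 at lysine 27 (H3K27ac) in triple-negative breast cancer (TNBC) cells. A standalone lncRNA gene was a GENCODE lncRNA gene on chromosomes 1 to 22 or X whose canonical start site, the start of its Ensembl canonical transcript, lay over 2.5 kb from the canonical start site of every protein-coding gene. There were 15146 such genes among 38726 lncRNA and protein-coding genes (18756 lncRNA and 19970 coding), and the remaining 3610 lncRNA genes lay within 2.5 kb of a coding start site. A promoter was called marked where a deposited peak lay, by at least 1 base, within 1 kb of the start site in either direction. The rule uses the positions of start sites alone.

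H3K27ac was profiled by chromatin immunoprecipitation and sequencing in 4 libraries, 2 each from MDA-MB-231 and Hs578T, established TNBC cell lines with mesenchymal features. Cells of both lines were starved of serum in optimem, given 10 ng/ml of TWEAK, the ligand of the receptor Fn14, for 48 h, and per the labels kept without it for 72 h (the text of the study and these labels differ on this time). Cells without TWEAK or still exposed to it were not analysed here, and the values describe the washout state of each line and no effect of TWEAK. Each group is 1 cell line. The study's methods call its ChIP-seq replicates of cell lines biological, and the labels say nothing of separate cultures.

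With 209 peaks, MDA-MB-231 replicate 1 marked only 3 standalone lncRNA promoters, so results rest on the 3 large lists, which are MDA-MB-231 replicate 2 (43353 peaks), Hs578T replicate 1 (46330) and Hs578T replicate 2 (44920). Values are given in that order throughout. Of standalone lncRNA promoters marked in either list of a pair, 88.2% were marked in both Hs578T lists, 86.8% in MDA-MB-231 replicate 2 and Hs578T replicate 1, and 86.2% in MDA-MB-231 replicate 2 and Hs578T replicate 2. For coding promoters the 3 shares were 95.6%, 96.7% and 95.1%, and whether each library is of the line on its label could not be checked from peaks. The mesenchymal genes VIM, CD44 and AXL had a promoter peak in every large list, as did TNFRSF12A, which encodes Fn14. The luminal and epithelial genes ESR1, GATA3, FOXA1 and ESRP1 had none in any.

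H3K27ac is deposited by the acetyltransferases CBP and p300 at active promoters and enhancers. Long non-coding RNAs are transcribed by RNA polymerase II and mostly spliced, but many start from promoters with few CpG dinucleotides, and some start within enhancers. Many coding promoters and promoters of broadly expressed lncRNAs lie in CpG islands, whereas AP-1, the dimer of FOS and JUN proteins, binds TGACTCA or TGAGTCA at many enhancers and inducible promoters.

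The 8 promoters printed here are examples from the CpG-poor class with an AP-1 match and from the CpG-rich class, which are described below. The largest class, the 12593 CpG-poor members without a match, is not shown. Each runs from 250 bases before the start site to 50 bases from it onwards (hg38), 5′ to 3′ along the gene, and capitals mark matches to the AP-1 letters just given, to CCAAT on either strand, or to TATAAA within 50 bases before the start. The first 5 are CpG-poor promoters with an AP-1 match: LUCAT1 (chr5:91314353-91314652, minus strand), a stress-inducible lncRNA, LINC00973 (chr3:98980808-98981107, plus), LINC00460 (chr13:106376323-106376622, plus), which has been studied in carcinoma invasion, MIR181A1HG (chr1:198937372-198937671, minus), a microRNA host gene, and ENSG00000204876 (chr7:155951780-155952079, plus).
LUCAT1: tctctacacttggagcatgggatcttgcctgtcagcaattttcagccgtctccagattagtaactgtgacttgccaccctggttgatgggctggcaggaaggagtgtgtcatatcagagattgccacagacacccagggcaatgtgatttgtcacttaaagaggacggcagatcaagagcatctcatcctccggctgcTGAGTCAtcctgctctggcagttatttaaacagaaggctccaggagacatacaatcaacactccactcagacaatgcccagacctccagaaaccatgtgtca
LINC00973: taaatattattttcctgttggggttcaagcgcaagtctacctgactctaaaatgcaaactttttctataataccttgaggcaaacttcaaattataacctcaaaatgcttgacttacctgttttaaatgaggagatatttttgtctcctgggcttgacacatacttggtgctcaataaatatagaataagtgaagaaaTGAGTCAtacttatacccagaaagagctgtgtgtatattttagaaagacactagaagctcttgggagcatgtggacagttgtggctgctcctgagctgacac
LINC00460: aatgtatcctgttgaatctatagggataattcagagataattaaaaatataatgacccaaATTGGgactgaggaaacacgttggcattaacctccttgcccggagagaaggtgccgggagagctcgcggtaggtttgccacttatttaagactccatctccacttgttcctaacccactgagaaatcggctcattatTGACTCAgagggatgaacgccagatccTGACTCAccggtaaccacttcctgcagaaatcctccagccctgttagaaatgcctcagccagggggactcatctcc
MIR181A1HG: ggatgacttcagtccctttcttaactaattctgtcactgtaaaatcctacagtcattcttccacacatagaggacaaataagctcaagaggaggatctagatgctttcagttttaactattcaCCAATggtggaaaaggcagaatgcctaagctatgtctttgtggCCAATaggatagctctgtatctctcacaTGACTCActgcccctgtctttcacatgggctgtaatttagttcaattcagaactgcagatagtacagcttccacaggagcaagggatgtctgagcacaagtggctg
ENSG00000204876: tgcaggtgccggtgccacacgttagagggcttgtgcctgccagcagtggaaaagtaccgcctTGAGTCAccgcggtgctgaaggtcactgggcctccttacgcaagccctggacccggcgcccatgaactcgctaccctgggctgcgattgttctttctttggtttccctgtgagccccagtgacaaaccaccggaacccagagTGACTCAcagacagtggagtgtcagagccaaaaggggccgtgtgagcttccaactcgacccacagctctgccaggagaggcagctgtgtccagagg
In LUCAT1 and LINC00973 the match begins 52 bases before the start site, in LINC00460 the nearest begin 53 and 26 bases before it, in MIR181A1HG 56 and in ENSG00000204876 46. The last 3 are CpG-rich promoters of lncRNAs found in many cell types: NEAT1 (chr11:65422548-65422847, plus), the scaffold of paraspeckles, MALAT1 (chr11:65497390-65497689, plus), which accumulates in nuclear speckles, and DANCR (chr4:52712251-52712550, plus), a small nucleolar RNA (snoRNA) host.
NEAT1: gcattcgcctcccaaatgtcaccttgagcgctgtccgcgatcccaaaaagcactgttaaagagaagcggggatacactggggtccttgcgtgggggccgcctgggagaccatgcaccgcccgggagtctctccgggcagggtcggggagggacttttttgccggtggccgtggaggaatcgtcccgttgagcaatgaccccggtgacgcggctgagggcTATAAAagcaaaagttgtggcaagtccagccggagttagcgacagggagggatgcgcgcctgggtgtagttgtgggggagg
MALAT1: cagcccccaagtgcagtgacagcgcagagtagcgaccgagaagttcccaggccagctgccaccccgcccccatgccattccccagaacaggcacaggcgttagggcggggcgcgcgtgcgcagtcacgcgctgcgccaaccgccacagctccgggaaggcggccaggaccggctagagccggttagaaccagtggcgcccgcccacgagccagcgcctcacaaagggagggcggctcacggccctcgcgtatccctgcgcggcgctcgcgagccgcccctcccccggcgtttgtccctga
DANCR: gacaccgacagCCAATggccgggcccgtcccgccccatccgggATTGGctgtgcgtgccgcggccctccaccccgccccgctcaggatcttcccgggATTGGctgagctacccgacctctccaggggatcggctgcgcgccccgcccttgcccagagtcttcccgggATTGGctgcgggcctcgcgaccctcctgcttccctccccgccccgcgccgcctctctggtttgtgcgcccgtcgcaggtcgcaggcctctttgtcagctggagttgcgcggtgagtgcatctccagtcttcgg
The number of CG dinucleotides in the 300 bases was 22 in NEAT1, 34 in MALAT1 and 31 in DANCR, compared with 3 in LUCAT1, 1 in LINC00973, 8 in LINC00460, 0 in MIR181A1HG and 13 in ENSG00000204876. NEAT1 has a TATAAA 31 bases before its start, and DANCR has 4 CCAAT matches. All 8 were picked from promoters marked in each large list, and a match does not mean that a promoter was marked. UCA1, a lncRNA studied in carcinoma, is CpG-poor with a match that begins 69 bases before its start and was marked in none.

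Most standalone lncRNA promoters were not marked, and the same ones tended to be marked in every list. In MDA-MB-231 replicate 2, 2254 of 15146 were marked, or 14.9% (95% Wilson interval 14.3 to 15.5%), in a list in which 42.4% of all lncRNA and coding promoters were marked. In Hs578T replicate 1, 2368 or 15.6% (15.1 to 16.2%) were marked beside 42.8% of all promoters, and in Hs578T replicate 2, 2262 or 14.9% (14.4 to 15.5%) beside 41.4%. The Hs578T lists thus marked 15.3% ± 0.495 (SD, n = 2), and the single large list of MDA-MB-231 lay within 1 SD of that mean. In MDA-MB-231 replicate 1 the 3 marked members compare with 0.0491% of all promoters. All 3 large lists marked 2064 members (13.6%), against 40.4% of all promoters, and at least 1 list marked 2540 (16.8%). Intervals cover counting error only, since neighbouring promoters are not independent and the depth of the libraries is unknown.

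Coding promoters were marked at 58.1%, 58.2% and 56.4%. The difference, coding minus standalone lncRNA, was 43.2, 42.6 and 41.5 percentage points, with a mean of 42.4 ± 0.870 (SD, n = 3 lists). It was positive in 3 of 3 lists, and an exact two-sided permutation test over lists gave p = 0.25. That is the smallest p that 3 lists allow, and every main test over lists in this report gave it. Coding genes that also lay over 2.5 kb from every other coding start site were marked at 52.8%, 53.0% and 51.1%. The remaining lncRNA promoters, those within 2.5 kb of a coding start site, were marked at 70.8%, 70.9% and 69.2%.

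**Figure D1:**
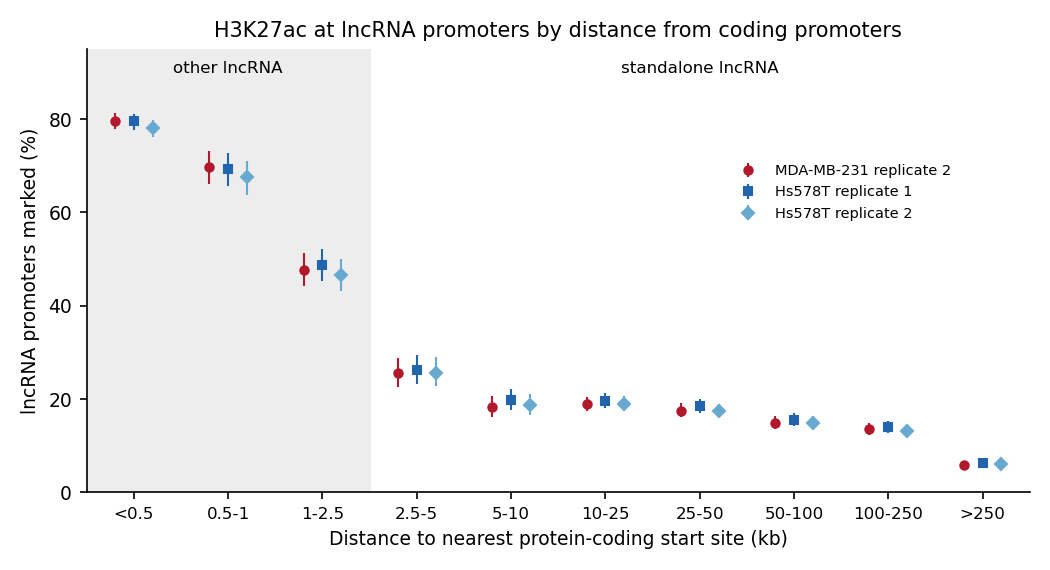
Percentage of lncRNA promoters marked (y axis) by distance from the nearest coding start site (x axis, kb), with 1 point for each large list and 95% Wilson intervals, and lncRNA genes outside the rule on grey. The percentage falls from about 79.6% within 0.5 kb in MDA-MB-231 replicate 2 to 5.8% beyond 250 kb.

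The share marked fell with distance from coding promoters, as the plot by distance shows. It was 79.6%, 79.5% and 78.1% for lncRNA genes that start within 500 bp of a coding gene and 47.8%, 48.8% and 46.6% at 1 to 2.5 kb. Among the standalone genes it was 25.6%, 26.2% and 25.7% at 2.5 to 5 kb, and between 17.5% and 19.7% in every list from 5 to 50 kb. Beyond 250 kb it was 5.8%, 6.4% and 6.1%. At the limit of the rule there was no step: the 98 genes left out at 2250 to 2500 bp were marked at 27.6%, 31.6% and 31.6%, and the 76 members at 2500 to 2750 bp at 30.3%, 28.9% and 30.3%.

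The mark was also set against the sequence around each gene. The same window moved 10 or 20 kb up- or downstream of standalone lncRNA start sites overlapped a peak in 7.97%, 8.66% and 8.18% of cases (mean of the 4 shifted windows). At the start site the share was higher by 6.91, 6.97 and 6.76 percentage points (mean 6.88 ± 0.109, SD, n = 3 lists, exact permutation p = 0.25), which is 1.87, 1.80 and 1.83 times the level of the flanks. At coding genes, by comparison, 58.1% of windows at the start and 9.90% of those 10 kb upstream overlapped a peak in MDA-MB-231 replicate 2.

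**Figure D2:**
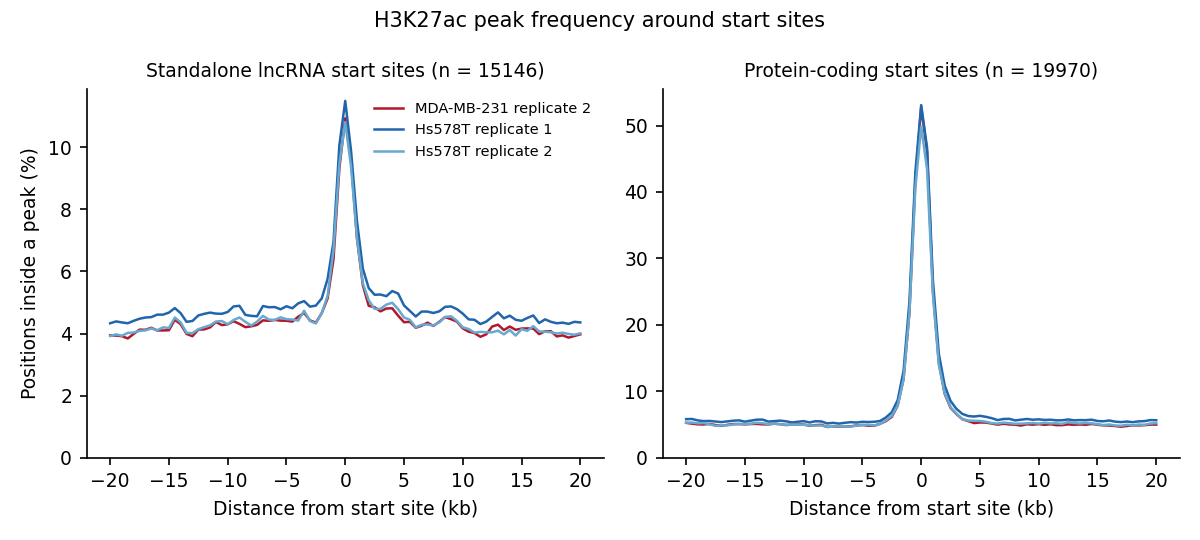
Percentage of positions inside a peak (y axis) by distance from the start site (x axis, kb, negative is upstream) for standalone lncRNA genes and coding genes in the 3 large lists, on separate y scales. At the start base 10.9%, 11.5% and 10.8% of lncRNA genes lie in a peak, compared with 52.8%, 53.1% and 49.9% of coding genes.

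Of the marked members, 73.4%, 73.5% and 72.3% had the start base itself inside a peak. The marked promoters shared 2013, 2123 and 2027 distinct peaks, with up to 6 members on 1 peak, so promoters on 1 peak are not separate measurements. Few of these peaks also lay at canonical coding promoters: the strongest promoter peak also reached the 1 kb window of a canonical coding start site in 107 members (4.75%), 113 (4.77%) and 95 (4.20%). Peaks at the starts of other coding transcripts are not in these counts. Of members marked in all 3 large lists, 84.6% lay over 2.5 kb from the start of every coding transcript, compared with 91.2% of those marked in none.

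Strength was compared next, within each list, by the fold enrichment of the strongest peak in the window. The median was lower at marked lncRNA promoters than at marked coding ones, although not within the CpG-rich class, while a larger share of marked lncRNA promoters had one of the strongest peaks of a list. Median fold enrichment was 8.25, 7.52 and 6.76 at standalone lncRNA promoters and 9.18, 8.13 and 6.86 at coding promoters. Coding minus lncRNA was 0.929, 0.610 and 0.102 (mean 0.547 ± 0.417, SD, n = 3 lists, exact permutation p = 0.25). Without MDA-MB-231 replicate 2 the mean difference was 0.356. Among CpG-rich promoters the order was the opposite in all 3 lists, with medians of 9.58, 8.54 and 7.25 at lncRNA and 9.31, 8.23 and 6.90 at coding promoters. Among CpG-poor promoters the lncRNA medians were the lower ones, at 7.59, 6.91 and 6.46 against 8.06, 7.37 and 6.51. Against coding genes over 2.5 kb from other coding starts (8.87, 7.80 and 6.60) the lncRNA median was higher in Hs578T replicate 2. The mean difference there was 0.251 (exact permutation p = 0.5). The mean fold enrichment had the opposite order, 10.6, 10.0 and 8.66 at lncRNA and 10.5, 9.51 and 7.95 at coding promoters (coding minus lncRNA, mean -0.444 ± 0.297, exact permutation p = 0.25). The 90th percentile was 21.4, 20.6 and 17.1 at lncRNA and 18.7, 17.1 and 13.8 at coding promoters.

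The spread of lncRNA promoter peaks was wide at both ends. Of marked lncRNA promoters, 31.7%, 30.3% and 32.4% had a peak from the weaker 50% of its list, compared with 21.3%, 22.3% and 26.0% of coding promoters. In the strongest 10% of peaks lay 20.8%, 20.8% and 19.8% of them, compared with 17.6%, 16.1% and 14.0% of coding promoters. Of marked lncRNA promoters within 2.5 kb of a coding start site, 25.2%, 22.4% and 17.8% lay there. In the weaker 50% lay 14.9%, 16.9% and 20.1% of these nearer lncRNA promoters. The strongest 1% of each list held 84, 89 and 73 marked standalone lncRNA promoters, or 3.73%, 3.76% and 3.23%. Over all marked promoters these shares were 1.74%, 1.41% and 1.08%, and over coding promoters 1.28%, 0.946% and 0.684%. Over the nearer lncRNA promoters they were 2.07%, 1.33% and 0.920%. The standalone lncRNA share exceeded the coding share by 2.60 ± 0.188 percentage points (SD, n = 3 lists, positive in 3 of 3, exact permutation p = 0.25). Median widths were 1810.5, 1891 and 1861 bp at lncRNA and 1792, 1897 and 1804 bp at coding promoters, with no common direction.

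**Figure D3:**
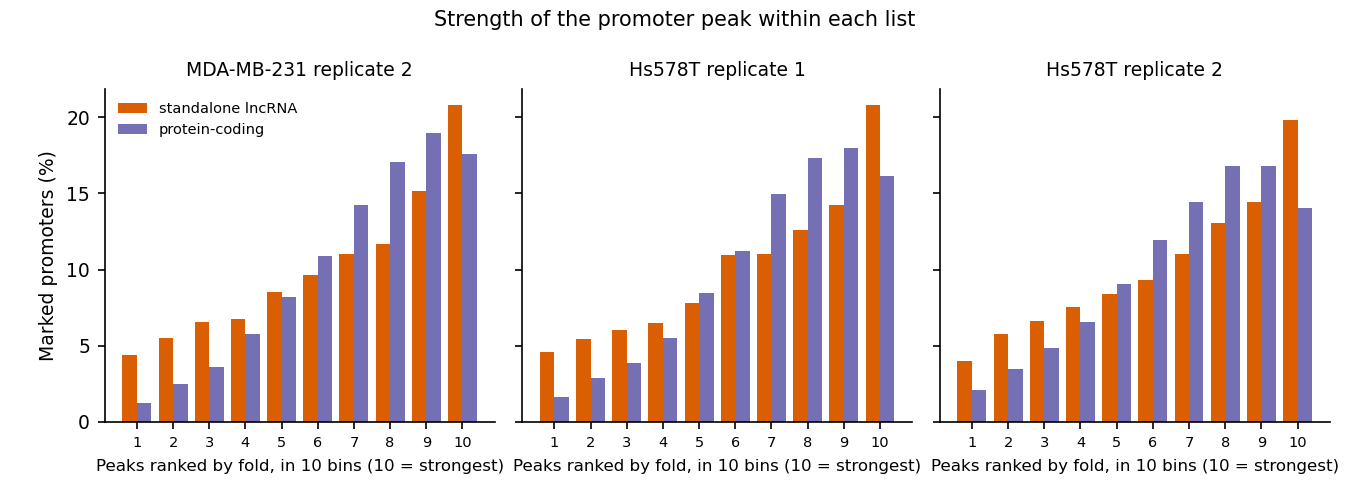
Percentage of marked promoters (y axis) in each of 10 equal bins of all peaks of the list ranked by fold enrichment (x axis, 10 is the strongest), for standalone lncRNA (orange) and coding (purple) promoters in each large list. The lncRNA bars exceed the coding bars in every list in the weakest 4 bins and in the strongest one, where they reach 20.8%, 20.8% and 19.8%.

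The 20 strongest members, ranked by the mean percentile of their promoter peak among all peaks of each list, all had a mean percentile above 99.7. They lay on 16 distinct peaks, and 17 of the 20 had no gene symbol. Of the 20, 16 were CpG-poor and 13 lay over 10 kb from every canonical coding start site. However, 7 lay within 2.5 kb of the start of another, non-canonical transcript of a coding gene, so that their peaks cannot be assigned to the lncRNA alone. The strongest of all, ENSG00000263756 (chromosome 6, start site 32972853, minus strand), had fold enrichments of 57.4, 59.3 and 39.6. It starts 4259 bp from the canonical start of BRD2, a reader of acetylated histones, but 123 bp from another coding transcript. ENSG00000282057 (chromosome 1, 85578250, minus) had 46.8, 47.1 and 37.5 and lies 2511 bp from CCN1, which encodes a matricellular protein, and 113 bp from another coding transcript.

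Others of the 20 were well away from any annotated coding start. ENSG00000285517 (chromosome 12, 30796077, plus), inside a coding gene on the opposite strand, had fold enrichments of 49.0, 53.7 and 40.6, with the nearest start of any coding transcript at 27213 bp. ENSG00000267446 (chromosome 17, 45372057, minus) had 49.6, 50.4 and 37.9, with the nearest start of any coding transcript at 23851 bp. The nearest canonical coding start, at 55037 bp, is that of MAP3K14, which encodes the kinase of the non-canonical NF-κB pathway. ENSG00000225676 (chromosome 22, 30207195, minus) had 50.6, 42.2 and 35.0, at 39564 bp from the canonical start of LIF, which encodes a cytokine of the interleukin-6 family, and 39544 bp from the nearest coding transcript. Fold enrichment is relative to each library, and its 99th percentile over all peaks was 28.4, 27.9 and 23.4, so its size is not compared between lists. Closer to a coding start, ENSG00000257830 (chromosome 12, 52279156, minus), 4511 bp from KRT86, a keratin gene, had 47.6, 32.8 and 48.0.

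**Figure D4:**
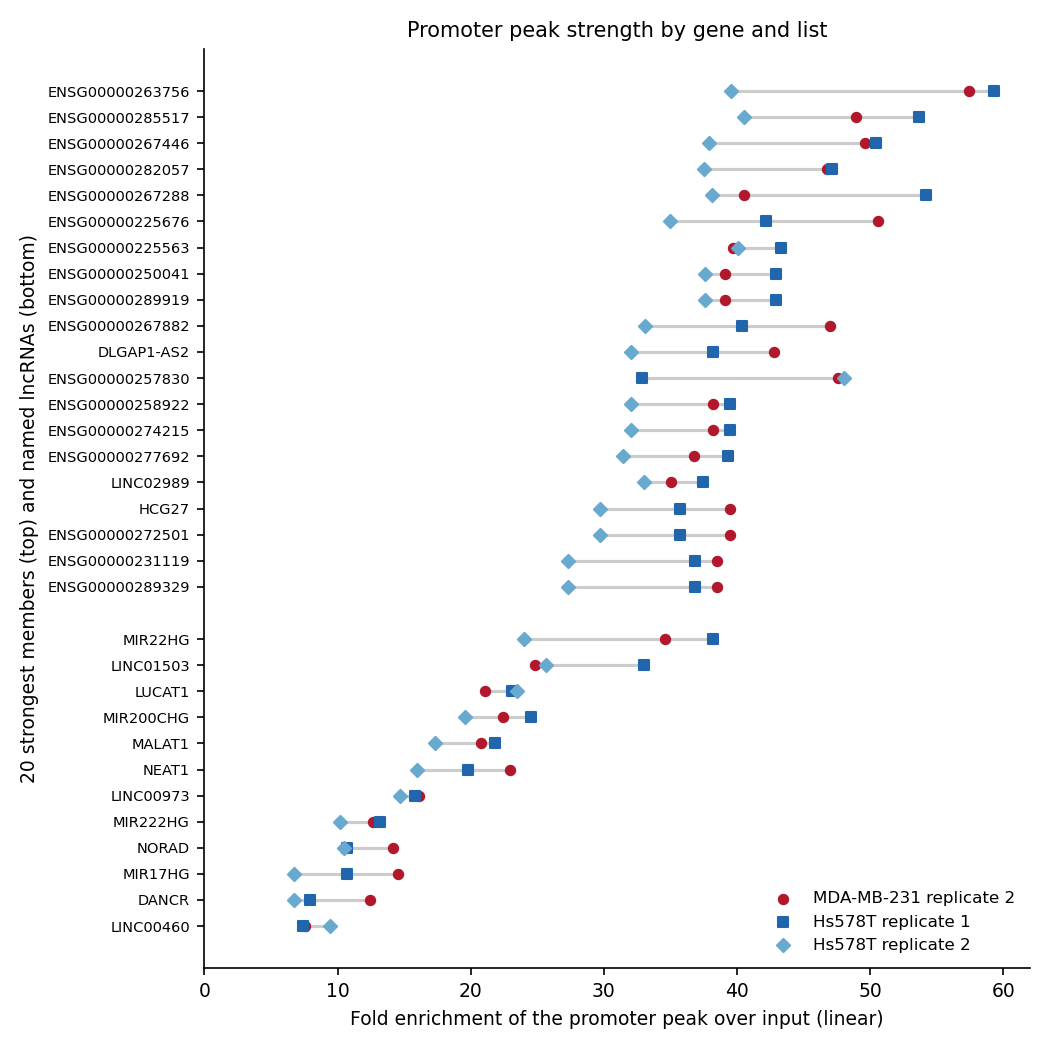
Fold enrichment of the promoter peak (x axis, linear) for the 20 strongest standalone lncRNA genes, in order of rank, and 12 named lncRNAs below them, with 1 point for each large list. The 20 strongest lie between 27.3 and 59.3, and genes on the same peak have equal values.

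Among members over 100 kb from every canonical coding start site, the strongest was ENSG00000225563 (chromosome 20, 53827297, minus), 233458 bp from ZNF217, with fold enrichments of 39.7, 43.3 and 40.1. DLGAP1-AS2 (chromosome 18, 3603928, plus) followed with 42.8, 38.2 and 32.1. ENSG00000204876, whose promoter with 2 AP-1 matches is printed above, had 36.2, 32.1 and 26.8 and lies 139567 bp from SHH, which encodes a morphogen. LINC02952 (chromosome 11, 69444743, minus) had 36.1, 32.5 and 26.5, and ENSG00000261334 (chromosome 9, 129482538, minus) had 33.1, 30.0 and 31.9.

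Breadth gave a different set of genes. Within 10 kb of the start site of MALAT1 (chromosome 11, 65497640, plus), all 20001 bp were covered in each large list, by 1 peak of 24468, 23906 and 22388 bp with fold enrichments of 20.8, 21.8 and 17.3. The antisense gene ENSG00000270117 lies under the same peak. Coverage was also complete in every large list at ENSG00000224000 (chromosome 1, 172906900, plus), with peaks of 26530, 26425 and 25806 bp, 144041 bp from TNFSF18. It was likewise complete at ENSG00000267375, 45957 bp from the start of ACTN4, and at ENSG00000269902 on chromosome X, whose peak of 37619, 39918 and 44810 bp also marks MIR222HG. MIR23AHG, a microRNA host on chromosome 19 (13842928, minus), had 20001, 20001 and 18700 bp covered and fold enrichments of 34.3, 33.0 and 22.4.

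Marked members were more often CpG-rich than unmarked ones, although most were CpG-poor. The rule did not use sequence. A promoter was called CpG-rich where its 300 bases had at least 50% GC and an observed to expected CpG ratio of at least 0.6. Of all standalone lncRNA promoters 1601, or 10.6% (10.1 to 11.1%), were CpG-rich, compared with 65.5% (64.9 to 66.2%) of coding promoters. Of members marked in all 3 lists 32.5% (30.5 to 34.5%) were CpG-rich, and of those marked in none 6.88% (6.45 to 7.33%). Within lists, the CpG-rich share of marked minus unmarked members was 24.6, 22.8 and 23.4 percentage points (mean 23.6 ± 0.958, SD, n = 3 lists, exact permutation p = 0.25). Read the other way, 44.4%, 44.0% and 43.0% of CpG-rich members were marked and 11.4%, 12.3% and 11.6% of CpG-poor ones. Coding promoters were marked more often in both classes, at 77.0%, 77.0% and 74.8% where CpG-rich and 22.1%, 22.6% and 21.5% where CpG-poor.

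Within the CpG-poor class, promoters with an AP-1 match were marked more often. The match (on either strand, since the 2 spellings are reverse complements) was found in 6.51% of standalone lncRNA promoters, 3.58% of coding promoters and 4.64% of all promoters. Among CpG-poor members, 24.3% (21.6 to 27.1%), 25.1% (22.5 to 28.0%) and 24.7% (22.1 to 27.5%) of the 952 with a match were marked, compared with 10.4%, 11.3% and 10.6% of the 12593 without. The difference was 13.9 ± 0.140 percentage points (SD, n = 3 lists, positive in 3 of 3, exact permutation p = 0.25). For CpG-poor coding promoters the shares were 30.1%, 29.9% and 27.7% with and 21.5%, 22.1% and 21.1% without a match. Of the 952 members, 215 were marked in all 3 lists, among them LUCAT1, LINC00973, LINC00460 and MIR181A1HG. A match describes these letters in this window and is not evidence of binding.

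**Figure D5:**
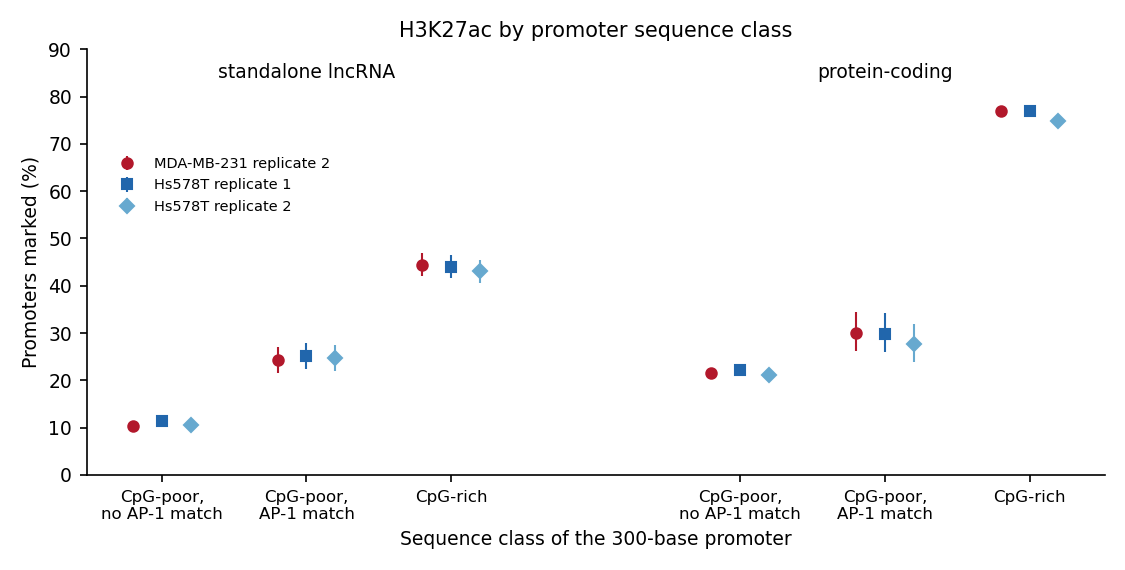
Percentage of promoters marked (y axis) by sequence class (x axis) for standalone lncRNA and coding genes, with 1 point for each large list and 95% Wilson intervals. CpG-poor lncRNA promoters with an AP-1 match lie between 24.3% and 25.1%, those without between 10.4% and 11.3%, and CpG-rich ones between 43.0% and 44.4%.

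The place of the match was then described. Of 231 CpG-poor members with a match that begins 100 to 51 bases before the start site, as in LUCAT1 and LINC00973, 34.2%, 33.8% and 34.6% were marked (28.4 to 40.5% in MDA-MB-231 replicate 2). In the other 50-base steps of the 300 bases the share was between 18.5% and 26.5% in every list. The interval of the step next to the start, 17.7 to 29.5% in MDA-MB-231 replicate 2, overlaps that of the highest step. In CpG-poor coding promoters another step was highest, the 50 bases before the start, with 40.7%, 39.6% and 37.4%.

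Matches to the ETS-type letters CCGGAAG or CTTCCGG, which are frequent in CpG-rich promoters, gave shares of 32.4%, 32.8% and 31.9% with and 14.3%, 15.1% and 14.4% without, a mean difference of 17.8 percentage points, positive in 3 of 3 lists (exact permutation p = 0.25). Among CpG-poor members the shares were 18.3%, 19.1% and 17.9% of the 257 with a match and 11.3%, 12.1% and 11.5% of the 13288 without. Members with a CCAAT match were marked less often, at 13.4%, 14.1% and 13.7%, compared with 15.7%, 16.5% and 15.6% without. Among CpG-poor members the shares were 10.4%, 11.3% and 11.0% with and 12.0%, 12.9% and 12.0% without. Coding promoters had the opposite order, at 59.4%, 59.7% and 57.8% with and 57.3%, 57.4% and 55.6% without. With TATAAA in the 50 bases before the start the shares of members were 10.0%, 11.1% and 10.6%, compared with 15.0%, 15.7% and 15.0% without. Among CpG-poor members they were 9.20%, 10.3% and 9.77% with and 11.4%, 12.3% and 11.7% without. The intervals overlap there, at 6.59 to 12.7% and 10.9 to 12.0% in MDA-MB-231 replicate 2.

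Neighbouring genes also differed between marked and unmarked members. Where the nearest coding promoter was itself marked, 18.6%, 19.5% and 18.5% of standalone lncRNA promoters were marked, compared with 10.5%, 11.0% and 11.0% where it was not (difference 8.00 ± 0.469 percentage points, SD, n = 3 lists, exact permutation p = 0.25). Among members over 10 kb away the shares were 17.3%, 18.1% and 17.2% against 10.0%, 10.5% and 10.5%.

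Annotation classes differed as well. For reference, 14.9%, 15.6% and 14.9% of all standalone lncRNA promoters were marked, and 42.4%, 42.8% and 41.4% of all lncRNA and coding promoters. Of 20 members named as snoRNA host genes, whose introns carry small nucleolar RNAs, 17, 18 and 17 were marked. Of 73 named as microRNA hosts 37.0%, 37.0% and 35.6% were marked, of 1068 antisense genes 19.7% to 20.7%, of 2186 LINC genes 16.1%, 16.6% and 16.0%, and of 11008 genes without a symbol 13.3%, 14.1% and 13.4%. Genes with at least 5 annotated transcripts were marked at 24.2%, 24.6% and 24.1%, and genes with 1 transcript at 13.1%, 14.1% and 13.3%. Members outside coding genes were marked at 15.6%, 16.0% and 15.4%, those inside a coding gene on its opposite strand at 14.2%, 15.6% and 14.6%, and those on its strand at 12.0%, 13.1% and 12.6%. How well a gene is studied and how it is transcribed cannot be told apart in these classes.

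Named groups of lncRNAs were followed through the lists. Among 9 abundant or widely expressed lncRNAs, 8 were marked in all 3 lists: MALAT1, NEAT1, NORAD, KCNQ1OT1, LINC-PINT, FTX, JPX and FIRRE. NEAT1 had fold enrichments of 22.9, 19.8 and 16.0, and NORAD, which binds PUMILIO proteins, had 14.2, 10.7 and 10.5. FIRRE was weak at 5.43, 4.84 and 3.50, and MIAT had no promoter peak, with the nearest peak 1017, 1130 and 1095 bp from its start. Of 22 snoRNA hosts, the 20 named above with DANCR and EPB41L4A-AS1, 19 were marked in all 3 lists, with SNHG26 at 25.4, 18.9 and 16.7, DANCR at 12.4, 7.96 and 6.73 and SNHG1 at 5.47, 5.40 and 4.87. SNHG20 was marked in Hs578T replicate 1 alone (3.23), and SNHG14 and SNHG27 in none. The share marked in all 3 lists was 40.4% over all promoters and 13.6% over standalone lncRNA genes.

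Of 75 microRNA hosts, the 73 named above with DLEU2 and LINC00472, 28 were marked in all 3 lists, 1 (MIR34AHG) in some and 46 in none, beside the 40.4% of all promoters and 13.6% of standalone lncRNA promoters marked in all 3. MIR22HG (chromosome 17, 1717174, minus) had the highest mean of those, with 34.6, 38.2 and 24.0, but starts 573 bp from a coding transcript. MIRLET7IHG, a host of the let-7 family, had 31.4, 28.3 and 20.4, DLEU2 19.4, 19.9 and 12.4, and MIR17HG, the host of an oncogenic microRNA cluster, 14.6, 10.7 and 6.74. MIR200CHG, whose microRNAs are known for maintaining the epithelial state, was marked at 22.5, 24.5 and 19.6 in these mesenchymal lines. MIR205HG and MIR155HG were marked in none.

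Of 17 lncRNAs linked to invasion or the mesenchymal state, 8 were marked in all 3 lists and 9 in none, against the same 40.4% and 13.6%. LINC01503 (chromosome 9, 129333907, plus) had 24.8, 33.1 and 25.7, LINC00973 16.2, 15.8 and 14.7, LINC00842 25.7, 23.8 and 18.3, and PVT1, a neighbour of MYC, 9.61, 6.96 and 5.90. CYTOR, MIR4435-2HG, MIR31HG, MIR100HG, CASC15, CCDC26, UCA1, LINC01133 and LINC01705 were not marked at their canonical start. Because CYTOR and MIR4435-2HG lie in near-identical copies of a sequence, their calls are uncertain. Of 10 lncRNAs of inflammation or stress, 6 were marked in all 3 lists, with LUCAT1 at 21.1, 23.1 and 23.5 and LINC00460 at 7.58, 7.38 and 9.44.

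Over all standalone lncRNA promoters, 12606 of 15146 were marked in none of the large lists. Of 12 luminal or other tissue lncRNAs, among them DSCAM-AS1, H19, MEG3 and PCA3, 11 were marked in none. The exception was LINC00261 (chromosome 20, 22578642, minus), known from endoderm and 5930 bp from FOXA2, at 17.7, 18.9 and 14.5. Of 7 HOX and developmental members 2 were marked in all 3 lists, HOXC-AS2 at 15.3, 12.3 and 11.5 and PAX8-AS1 at 7.33, 6.98 and 4.44. These start 1276 and 93 bp from a coding transcript. The share marked in all 3 was again 40.4% over all promoters and 13.6% over standalone lncRNA genes. Whether the shares of these lists differ was not tested.

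Finally, members marked in only some lists were examined. Of the 2540 members marked in at least 1 large list, 81.3% were marked in all 3, compared with 93.8% of 11848 such coding promoters. Marked in both Hs578T lists and not in MDA-MB-231 replicate 2 were 106 of the 15146 members, and 80 were marked in MDA-MB-231 replicate 2 alone. These patterns were not counted over all promoters. MDA-MB-231 replicate 2 and 1 of the Hs578T lists marked a further 84 (replicate 1) and 26 (replicate 2), and 114 and 66 were marked in 1 Hs578T list alone. The number for Hs578T is thus smaller than the 180 members marked in a single Hs578T list, and a difference between the lines cannot be told apart from one between libraries, since MDA-MB-231 has 1 large list. Partial marking went with weak peaks: members marked in 1 list lay at median percentiles of 14.3, 13.6 and 14.2 of that list, and those marked in all 3 at 70.8, 72.8 and 70.5. Of the 106 members, 72 (67.9%) had a peak of MDA-MB-231 replicate 2 within 10 kb, and of the 80 members 42 (52.5%) had a peak of either Hs578T list within 10 kb. The share of all members with such a peak was not counted.

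A few of these genes had stronger peaks. With Hs578T peaks only, ENSG00000269976 (chromosome 2, 20586686, minus) had 16.4 and 12.0, LINC00572 (chromosome 13, 29926651, minus) 11.0 and 11.0, ENSG00000289606 11.7 and 9.39, and THBS1-IT1, inside the gene of the matricellular protein thrombospondin, 10.6 and 9.73. With a peak in MDA-MB-231 replicate 2 only, ENSG00000258860 (chromosome 14, 35363628, minus), 41121 bp from NFKBIA, which encodes an inhibitor of NF-κB, had 20.8, ENSG00000287865 (chromosome 7, 155203671, plus) 18.2, HCG9 (chromosome 6, 29975112, plus) in the HLA region 17.1, ENSG00000253632 12.8 and LINC02580 10.6. These genes were chosen by this pattern, so the values describe it and no test was made.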

How the data were processed

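H3K27ac ChIP-seq peak lists of 4 libraries were used. The authors trimmed reads with Trimmomatic, mapped them to hg38 with Bowtie2, called peaks per library with MACS2 with input subtraction and removed blacklisted regions with bedtools; versions and settings are not given in the sources used here. Each deposited peak carries a score (10 times the −log10 q-value without decimals), a fold enrichment (a ratio over local background) and −log10 p-value and q-value. Peaks depend on depth, which is unknown, and on the input.

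Start sites were taken from GENCODE 44 and sequences from the matching genome. Peaks and windows were intersected in Python 3.11 (numpy, pandas), with routines tested on simulated data. Fold enrichment was compared only within a list. Percentages have 95% Wilson intervals, and classes were compared over the 3 large lists by exact two-sided permutation. The 15 main tests were unadjusted, since their p-values all equal the smallest possible. Tests of the alternatives are not among these 15. Members, named genes and lists were chosen with earlier results of these data known. Named genes were the 20 strongest members marked in all 3 lists, the 10 with most covered bases within 10 kb, up to 5 marked in Hs578T only and up to 5 in MDA-MB-231 replicate 2 only, the 5 strongest over 100 kb from coding starts, and members of 7 lists. Windows, overlap, peak thresholds, start sites, distances and libraries were varied. Sequence motifs and shifted windows were added after seeing the data.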

Additional observations from a re-analysis of the deposited data

How the results depend on the processing

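The share of standalone lncRNA promoters marked, 15.2% as the mean of the 3 large lists, moved by more than the SD between lists under 11 alternatives. It was 11.1% for the start base alone, 13.6% and 19.4% for windows of 500 bp and 2.5 kb, 12.7% where 500 bp of the window had to be covered, 10.3% with the strongest 50% of each list, 17.1% with any annotated transcript, 14.2% for members over 2.5 kb from every coding transcript, 14.6% and 14.2% beyond 5 and 10 kb, 14.4% with starts within 1 kb counted as 1, and 14.5% without peaks that reach a coding window. The coding minus lncRNA strength difference was reversed for peak width (-23.2 bp, exact permutation p = 0.5). It was also reversed among CpG-rich promoters (fold enrichment -0.309), a split chosen after seeing the data. The coding minus lncRNA difference in share ranged from 34.0 to 44.9 percentage points, and the strongest 1% kept its direction, at 2.26 to 2.52, where peaks or genes near coding starts were left out or each peak was counted once. None of the other results changed direction under the alternatives run, leaving out a library included. No member had annotation level 3, so that filter changed nothing for them. No paired analysis was possible because MDA-MB-231 replicate 1 held 209 peaks and no test between lines was made. With unknown depth, an unmarked promoter is one without a called peak and not one shown to lack H3K27ac.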

Other observations

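Other annotated starts of unmarked members were examined. Of 3999 members unmarked in MDA-MB-231 replicate 2 that have several transcripts, 297 (7.43%, 95% Wilson interval 6.65 to 8.28%) had a peak within 1 kb of another annotated start, and in the Hs578T lists 7.40% and 7.38% did. The shifted windows described above, around all standalone lncRNA genes, overlapped a peak in 7.97%, 8.66% and 8.18% of cases. The shares at other starts were thus no higher than those of shifted windows. Whether other starts differ from the sequence around them was not tested, and the genes that follow are single examples. MIR100HG was unmarked at its canonical start, but 22 of its 107 transcripts started within 1 kb of a peak in all 3 large lists, the nearest 353379 bp downstream, where fold enrichments were 16.6, 20.9 and 17.5. CCDC26 had 4 of 143 such transcripts, with values of 29.2, 19.4 and 18.6 at the nearest, and at MIR3142HG 1 of 2 transcripts did so, with 15.3, 15.1 and 12.9. By contrast MIR31HG, on the short arm of chromosome 9, had no peak within 803321 bp of its canonical start in any large list, and CYTOR none within 560023 bp.

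Chromosomes differed in the share of standalone lncRNA promoters marked. Averaged over the 3 large lists it was lowest on chromosome 18 (8.12% of 468) and chromosome 21 (9.59% of 306) and highest on chromosome 1 (20.4% of 1240).

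With its 209 peaks, MDA-MB-231 replicate 1 marked GBAP1 (fold enrichment 3.67), FER1L6-AS2 (10.2) and ZDHHC20-IT1 (3.87). The first 2 were marked in all 3 large lists, and ZDHHC20-IT1 in none.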
